A study of Homo sapiens with 15 samples.

Results

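Plasminogen activators, their receptor and inhibitors, and the tissue inhibitors of metalloproteinases were followed by RNA sequencing in 2 senescent human cell lines carrying a hairpin against THBD, the gene of the thrombin-binding receptor thrombomodulin. The 8 genes were PLAU, PLAT, PLAUR, SERPINE2, SERPINB2, TIMP1, TIMP2 and TIMP3, chosen by name, and all 8 were found among the 59428 genes of the IMR90 count table and among the 59412 genes of the Huh7 count table. IMR90 is a lung fibroblast line, and all 9 of its libraries came from cells that the treatment labels describe as senescent through HRAS G12V, an oncogenic allele that the controls carry too. Of these, 3 libraries had a non-targeting shRNA and 6 had shTHBD, which their titles divide into 2 sets of 3, numbered 1 and 2, without saying what the number means. Huh7 is a line from a hepatocyte-derived carcinoma, and all 6 of its libraries came from cells made senescent with palbociclib, a drug that blocks CDK4 and CDK6, with 3 non-targeting controls and 3 shTHBD libraries. No library from cells that were not senescent was analysed here. The labels do not say whether replicates were separate cultures, so every p-value measures only the spread between these libraries, which may be technical. The growth protocol further mentions IMR90 aged by passaging; its bearing on these libraries is not stated.

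Plasminogen activators are serine proteases that cut plasminogen into plasmin, which degrades fibrin and matrix proteins and activates growth factors and latent metalloproteinases. PLAU encodes urokinase, which works mostly at the cell surface, where PLAUR, its lipid-anchored receptor, holds it. PLAT encodes tissue-type activator, which is most active on fibrin. Serpins trap such proteases in a covalent complex: SERPINB2 is plasminogen activator inhibitor type 2, largely kept inside the cell, and SERPINE2 is protease nexin 1, which inhibits thrombin, urokinase and plasmin. TIMPs bind the active site of matrix metalloproteinases; TIMP1 and TIMP2 are soluble, TIMP2 also takes part in the activation of pro-MMP2 by MMP14, and TIMP3 binds to the matrix and also inhibits ADAM17 and several ADAMTS proteases. Several of these genes belong to the secretory profile described for senescent fibroblasts.

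The libraries held 18256773 to 21509229 gene counts in IMR90, 19328182 to 20020683 in the Huh7 controls and 22479132 to 25236178 in the Huh7 shTHBD libraries. Levels are CPM, a gene's counts divided by the library's total count on the usual scale, as mean ± SD over n = 3 libraries. Fold changes use TMM, a further scaling between libraries, so they can differ from the ratios of these CPM. Changes are log2 fold changes ± SE from edgeR's quasi-likelihood test, called at a Benjamini-Hochberg adjusted p under 0.05 over all genes of the fit; the SE is approximate, computed from the F statistic. THBD checks the labels. Its counts were 315, 351 and 430 in the IMR90 control, 719, 732 and 763 in the libraries labelled set 1, and 199, 220 and 209 in set 2. Against the control, the libraries labelled set 1 had 2.12 times as much THBD (adjusted p = 1.2e-20), which goes against their label, and in set 2 it was lower by 1.76-fold (adjusted p = 1.5e-12). For this reason the sets are kept apart, and every direction given for set 1 is that of libraries in which THBD was higher, not lower. In Huh7 the counts were 0, 0 and 6 in the control and 0 in each shTHBD library, so depletion could not be checked there. The description of set 2 replicate 3 names Huh7 while its line, tissue and treatment labels name IMR-90. Without that library all 8 set 2 changes against control kept their direction and their call. In Huh7, shTHBD replicate 3 stood apart from its group, with a chi-square per degree of freedom over genes of 9.99 and 12.5 against replicates 1 and 2, which differed from each other by 4.31; pairs of Huh7 controls gave 3.57 to 5.26. All 14 fibroblast markers examined reached 10 CPM in IMR90 and 13 of 15 hepatocyte markers did so in Huh7, while none of 10 leukocyte markers reached 10 CPM in any group. The summed fibroblast markers were lower in the libraries labelled set 1 (14270 to 14540 CPM) than in the control (19690 to 19750 CPM) or set 2 (18600 to 18790 CPM). The summed endothelial markers, of which CDH5 and EMCN were at 0 in every control, were 170 to 177 CPM there, 346 to 349 CPM in the libraries labelled set 1 and 104 to 112 CPM in set 2, with TIE1 alone at 162, 342 and 101 CPM on average. The part of these differences in the changes below was not tested. In bulk RNA, fewer cells of a type and less RNA per cell cannot be told apart.

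The 250 bases upstream of the annotated start are shown for 3 genes, the serpin that rose in the libraries labelled set 1 (SERPINB2), the TIMP that rose in both sets (TIMP3) and the serpin that fell in both sets and in Huh7 (SERPINE2), because these stretches overlap no exon of the IMR90 table's annotation. Those of SERPINB2 and SERPINE2 lie inside the annotated span of their genes, before a start that is not the first, and that of TIMP3 lies just before the gene. For PLAUR, whose upstream stretch is annotated as exon, 30 bases are shown. Sequences are from RefSeq (GRCh38.p14), read 5′ to 3′ on the gene's strand, with matches of the searched motifs in capitals on either strand. RefSeq entries were used here for 6 of the 8 genes (8 entries, since PLAU and SERPINE2 have more than 1 start).
SERPINB2, chr18:63887455-63887704, plus strand: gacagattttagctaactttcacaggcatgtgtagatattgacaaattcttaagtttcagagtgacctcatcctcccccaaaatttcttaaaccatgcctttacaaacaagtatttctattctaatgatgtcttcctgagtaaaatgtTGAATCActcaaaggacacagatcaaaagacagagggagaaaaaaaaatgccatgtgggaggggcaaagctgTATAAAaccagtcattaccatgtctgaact
TIMP3, chr22:32801455-32801704, plus strand: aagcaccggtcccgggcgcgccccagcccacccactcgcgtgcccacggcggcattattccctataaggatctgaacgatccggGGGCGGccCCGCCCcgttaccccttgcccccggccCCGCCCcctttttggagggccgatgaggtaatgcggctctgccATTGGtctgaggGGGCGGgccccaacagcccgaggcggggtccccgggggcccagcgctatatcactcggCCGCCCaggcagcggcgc
SERPINE2, chr2:224031479-224031728, minus strand: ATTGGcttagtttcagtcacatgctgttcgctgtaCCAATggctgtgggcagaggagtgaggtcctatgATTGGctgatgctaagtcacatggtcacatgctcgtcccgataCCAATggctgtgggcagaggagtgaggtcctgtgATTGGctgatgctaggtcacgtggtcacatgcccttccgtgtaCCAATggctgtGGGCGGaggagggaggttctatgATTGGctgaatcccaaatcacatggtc
PLAUR, chr19:43670337-43670366, minus strand: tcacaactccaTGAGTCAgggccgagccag

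The motifs searched on both strands were an AP-1 site (TGANTCA), an NF-kB site (GGGNNTTCC), a cAMP response element (TGACGTCA) and a GC box (GGGCGG). Both strands were also searched for the letters TATAAA, a common form of the box that binds the TATA-binding protein. The last motif searched was the box named for its letters, CCAAT. No motif overlaps another in the stretches shown. An AP-1 match began 102 bases before the start of SERPINB2 and 186 bases before that of PLAUR, and in none of the other entries. Of 35116 promoters of the same length, from chromosomes other than 8, 6.57% hold one. PLAT lies on the excluded chromosome, so whether it has a RefSeq entry was not examined. SERPINB2 also had a TATA match beginning 30 bases before its start. Of these promoters, 10.7% hold a TATA match at any position in the 250 bases. The TIMP3 stretch held 5 GC boxes and 1 CCAAT box, found at least once in 42.6% and 32.0% of promoters, and no match of AP-1, NF-kB, the cAMP response element or the TATA box. The SERPINE2 stretch held 7 CCAAT matches and 1 GC box. Much of that stretch repeats itself, and the CCAAT matches recur with the repeat, so the 7 are not separate finds. This SERPINE2 entry is the more downstream of the gene's pair of starts. The other one, 164 of whose 250 bases are annotated as exon, held 2 GC boxes and no CCAAT box. NF-kB letters occur in 5.78% of promoters and the cAMP response element in 1.65%, and neither was in any of the 8 entries. These matches describe letters in these windows.

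**Figure D1:**
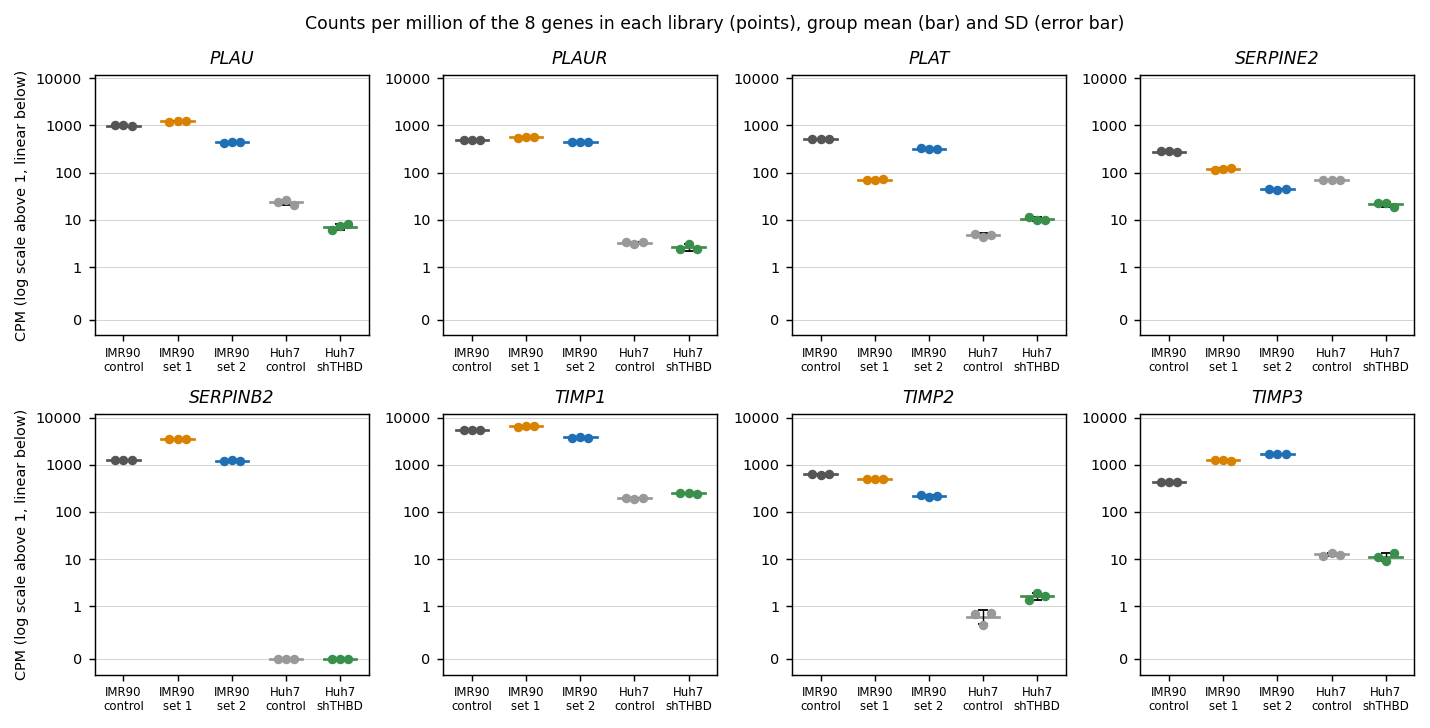
Level in CPM of PLAU, PLAUR, PLAT, SERPINE2, SERPINB2, TIMP1, TIMP2 and TIMP3 (vertical axis, logarithmic above 1 and linear below) in the 3 libraries of each of the 5 groups, with each library as a point, the group mean as a bar and the SD as an error bar. In IMR90 the points of a group lie close together and PLAT, SERPINE2 and TIMP2 are lower in both sets than in the control, while SERPINB2 is at 0 in all 6 Huh7 libraries.

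In IMR90 the activators moved in opposite directions in the libraries labelled set 1 and both fell in set 2. The tissue-type activator PLAT fell in both sets, and most in the libraries labelled set 1, while urokinase PLAU rose in the libraries labelled set 1 and fell in set 2. PLAT lies on chromosome 8 from 42174718 to 42207709 (GRCh38, minus strand). It was at 519, 517 and 521 CPM in control libraries, 70.5, 69.3 and 72.6 CPM in those labelled set 1, and 326, 314 and 315 CPM in set 2. No PLAT values overlapped between groups, and the order was control, set 2, set 1. The fall was 7.05-fold in the libraries labelled set 1 (log2 −2.82 ± 0.03, adjusted p = 4.8e-69) and 1.73-fold in set 2 (−0.79 ± 0.03, adjusted p = 1.2e-39). PLAU lies on chromosome 10 from 73909177 to 73917496 (plus strand) and stood at 999, 1008 and 959 CPM in control libraries, 1195, 1230 and 1221 CPM in those labelled set 1, and 431, 446 and 438 CPM in set 2. Again the groups did not overlap, with the libraries labelled set 1 highest and set 2 lowest. PLAU rose 1.28-fold in the libraries labelled set 1 (log2 0.35 ± 0.02, adjusted p = 4.2e-24) and fell 2.39-fold in set 2 (−1.26 ± 0.02, adjusted p = 1.7e-56). Both sets are compared with the same 3 control libraries. Over exons PLAU shares 915 bases with C10orf55 on the other strand, and counting used no strand. C10orf55 itself had 33 to 79 counts in IMR90, against 8039 or more for PLAU. These counts do not show how many reads fell in the shared bases, and the same holds for the overlaps of SERPINB2 and TIMP2 below. Levels per kilobase use all exon bases, shared ones included.

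Together these changes shifted the balance of the activators. Per kilobase of exon, PLAU stood 5.02 ± 0.15 times above PLAT in the control, 45.2 ± 1.33 times in the libraries labelled set 1 and 3.63 ± 0.129 times in set 2. The sum of both, 1508 ± 24.2 CPM in control libraries, was 1286 ± 18.5 CPM in those labelled set 1 and 757 ± 3.4 CPM in set 2, with no overlap between groups. PLAUR, on chromosome 19 from 43646095 to 43670547 (minus strand), moved less than its ligand. The receptor was at 495, 484 and 484 CPM in control libraries, 545, 570 and 558 CPM in those labelled set 1, and 445, 444 and 447 CPM in set 2. The groups were separate, in the same order as for PLAU. PLAUR rose 1.19-fold in the libraries labelled set 1 (log2 0.25 ± 0.02, adjusted p = 6.4e-15) and fell 1.16-fold in set 2 (−0.21 ± 0.02, adjusted p = 1.7e-12). With library size scaling alone, its set 2 change in the edgeR test was −0.13 (adjusted p = 1.8e-06). Per kilobase, urokinase stood 3.07 ± 0.0782 times above its receptor in the control, 3.29 ± 0.0291 times in the libraries labelled set 1 and 1.49 ± 0.0271 times in set 2.

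The inhibitors of plasminogen activators split as well. SERPINE2 fell in both sets, whereas SERPINB2 rose in the libraries labelled set 1 and fell slightly in set 2. SERPINE2 lies on chromosome 2 from 223975045 to 224039318 (minus strand). It was at 281, 282 and 276 CPM in control libraries, 117, 121 and 126 CPM in those labelled set 1, and 45.7, 42.6 and 44.8 CPM in set 2. All groups were separate, and set 2 was lowest. The fall was 2.22-fold in the libraries labelled set 1 (log2 −1.15 ± 0.03, adjusted p = 2.6e-42) and 6.67-fold in set 2 (−2.74 ± 0.04, adjusted p = 5.4e-63), so that SERPINE2 and PLAT were each lower in both sets but with opposite ranks of the sets. SERPINB2, on chromosome 18 from 63871692 to 63903888 (plus strand), was at 1282, 1286 and 1259 CPM in control libraries, 3534, 3584 and 3541 CPM in those labelled set 1, and 1174, 1242 and 1205 CPM in set 2. The libraries labelled set 1 stood far above the others, and set 2 lay just below the control without overlap. SERPINB2 rose 2.89-fold in the libraries labelled set 1 (log2 1.53 ± 0.02, adjusted p = 2.8e-65) and fell 1.12-fold in set 2 (−0.16 ± 0.02, adjusted p = 6.8e-12). With library size scaling alone, its set 2 change in the edgeR test was −0.08 (adjusted p = 1.2e-04). SERPINB2 shares 547 exon bases with SERPINB10, which had 5 to 28 counts in IMR90. Per kilobase, SERPINB2 stood 14.9 ± 0.0208 times above SERPINE2 in the control, 95.8 ± 3.86 times in the libraries labelled set 1 and 89 ± 5.77 times in set 2; the ranges of the sets overlapped.

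Among the TIMPs, TIMP3 rose in both sets, TIMP2 fell in both, and TIMP1 moved up in the libraries labelled set 1 and down in set 2. TIMP3 lies on chromosome 22 from 32801705 to 32863041 (plus strand). It was at 429, 428 and 435 CPM in control libraries, 1279, 1241 and 1230 CPM in those labelled set 1, and 1693, 1693 and 1685 CPM in set 2. Every library of both sets was above every control, and set 2 was above the libraries labelled set 1. TIMP3 rose 3.01-fold in the libraries labelled set 1 (log2 1.59 ± 0.02, adjusted p = 5.9e-64) and 3.70-fold in set 2 (1.89 ± 0.02, adjusted p = 8.9e-70). TIMP2, on chromosome 17 from 78852977 to 78925387 (minus strand), was at 642, 617 and 638 CPM in control libraries, 495, 496 and 504 CPM in those labelled set 1, and 225, 203 and 213 CPM in set 2. The groups were separate, with set 2 lowest. TIMP2 fell 1.22-fold in the libraries labelled set 1 (log2 −0.29 ± 0.03, adjusted p = 2.2e-16) and 3.13-fold in set 2 (−1.65 ± 0.03, adjusted p = 1.0e-58). It shares 198 exon bases with CEP295NL, which had 3 to 15 counts in IMR90.

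TIMP1, on chromosome X from 47582408 to 47586789 (plus strand), was the most abundant of the 8 genes per kilobase in every group. It was at 5555, 5395 and 5416 CPM in control libraries, 6427, 6622 and 6716 CPM in those labelled set 1, and 3743, 3846 and 3772 CPM in set 2. The groups did not overlap. TIMP1 rose 1.26-fold in the libraries labelled set 1 (log2 0.33 ± 0.02, adjusted p = 1.5e-28) and fell 1.53-fold in set 2 (−0.61 ± 0.02, adjusted p = 5.3e-45). The share of TIMP3 in the sum of the 3 TIMPs per kilobase was 2.36 ± 0.0453% in control libraries, 5.53 ± 0.226% in those labelled set 1 and 12.2 ± 0.135% in those of set 2. TIMP1 made up 94.8 ± 0.0737%, 92.7 ± 0.246% and 86.6 ± 0.21% of that sum.

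**Figure D2:**
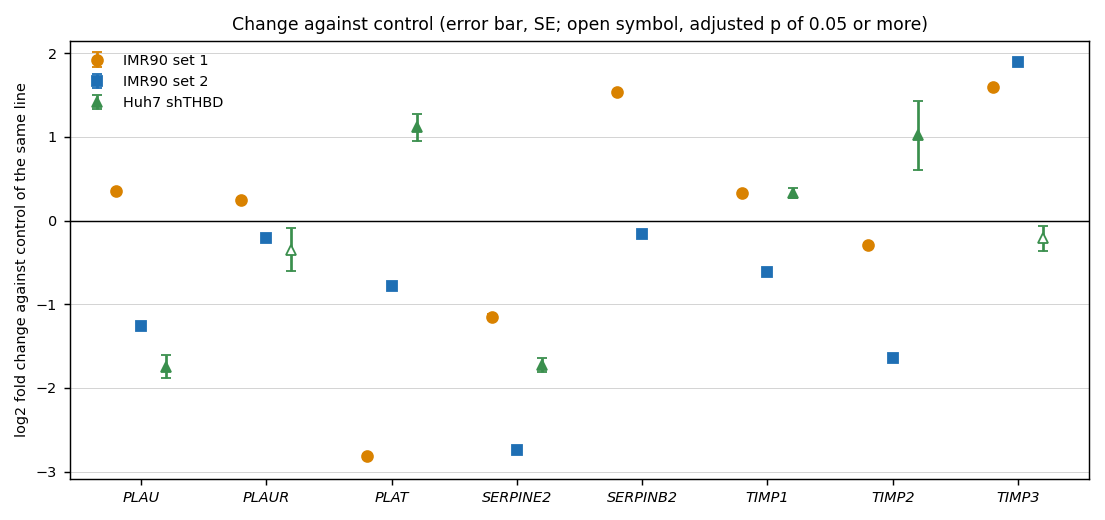
Log2 fold change against the control of the same line (vertical axis, error bars SE) for each of the 8 genes in IMR90 set 1 (circles), IMR90 set 2 (squares) and Huh7 shTHBD (triangles), with open symbols where the adjusted p was 0.05 or more and no symbol for SERPINB2 in Huh7. SERPINE2 lies below 0 in all 3 comparisons, from −2.74 to −1.15, and PLAT lies below 0 in both IMR90 sets and at 1.11 in Huh7.

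Counted over the 8 genes, 5 were called higher and 3 called lower for the libraries labelled set 1, where 27.3% of the 15411 genes tested were called higher and 26.5% lower. In set 2, 1 was higher and 7 were lower, against 33.2% and 34.1% of all genes. The median log2 change of the 8 genes was 0.29 for the libraries labelled set 1 and −0.70 for set 2, beside medians over all genes tested of −0.002 and 0.007. All 8 passed the filter on low counts in IMR90. Compared with each other, the sets differed in all 8 genes, with 6 higher in the libraries labelled set 1 (33.9% of all genes) and 2 lower (35.6%). The 6 were SERPINB2 (3.24-fold), PLAU (3.05-fold), SERPINE2 (3.01-fold), TIMP2 (2.57-fold), TIMP1 (1.91-fold) and PLAUR (1.38-fold). PLAT was 4.08-fold lower (log2 −2.03 ± 0.03, adjusted p = 1.1e-60) and TIMP3 1.23-fold lower (−0.30 ± 0.02, adjusted p = 1.3e-22). The 8 genes took 1.01 ± 0.0115% of all counts in control libraries, 1.39 ± 0.0169% in those labelled set 1 and 0.815 ± 0.0077% in those of set 2.

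In palbociclib-treated Huh7 cells the 8 genes were far scarcer, at 0.0309 ± 0.000687% of all counts in the control and 0.0303 ± 0.00054% with shTHBD. Urokinase and SERPINE2 fell there, PLAT and TIMP1 rose, SERPINB2 was not detected, and PLAUR and TIMP3 did not pass the test. Depth, summed epithelial markers (4658 to 4894 CPM in the control, 2811 to 2877 CPM with shTHBD) and summed fibroblast markers (1087 to 1135 CPM, then 1707 to 1774 CPM) moved with the group, and their part was not tested. PLAU was at 24.4, 26.3 and 20.3 CPM in the control and 6.14, 7.25 and 8.23 CPM with shTHBD. These values did not overlap, and PLAU fell 3.35-fold (log2 −1.74 ± 0.14, adjusted p = 1.0e-12). PLAT was at 5.08, 4.25 and 4.86 CPM in the control and 11.4, 9.91 and 10.0 CPM with shTHBD, also without overlap, and rose 2.16-fold (1.11 ± 0.16, adjusted p = 7.4e-07). Per kilobase, PLAU stood 12.2 ± 2.5 times above PLAT in the Huh7 control and 1.68 ± 0.349 times above it with shTHBD. SERPINE2 was at 69.6, 68.7 and 69.0 CPM in the control and 23.0, 22.6 and 18.4 CPM with shTHBD. Its groups were clearly apart, and SERPINE2 fell 3.30-fold (−1.72 ± 0.09, adjusted p = 1.3e-17).

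TIMP1 in Huh7 was at 201, 186 and 197 CPM in the control and 251, 253 and 243 CPM with shTHBD, every shTHBD library being above every control, and it rose 1.26-fold (log2 0.33 ± 0.06, adjusted p = 9.0e-06). TIMP2 was close to the limit of detection, with 17, 13 and 17 counts in the control and 33, 48 and 38 counts with shTHBD, or 0.864, 0.649 and 0.879 CPM against 1.37, 1.90 and 1.69 CPM. The values did not overlap and TIMP2 was called 2.03-fold higher (1.02 ± 0.41, adjusted p = 0.0372). That call was lost without control replicate 1, 2 or 3 or shTHBD replicate 2 or 3 (adjusted p 0.0682 to 0.127), and with no filter on low counts (adjusted p = 0.0659). TIMP3 was at 11.9, 13.7 and 12.5 CPM in the control and 11.2, 9.03 and 13.3 CPM with shTHBD. These ranges overlapped, with a log2 difference of −0.21 (95% interval −0.50 to 0.07, adjusted p = 0.222). Without shTHBD replicate 3 the difference was −0.39 and passed the test (adjusted p = 0.0239), so that 1 library decides that call. PLAUR was at 3.35, 3.10 and 3.41 CPM in the control and 2.41, 3.09 and 2.40 CPM with shTHBD. All shTHBD values were below the controls by a narrow margin, and the log2 difference of −0.35 had a 95% interval from −0.85 to 0.15 (adjusted p = 0.265). SERPINB2 had 0 counts in all 6 Huh7 libraries, where 3 counts would be 0.119 to 0.155 CPM, and it was not tested there. Of the 7 genes tested in Huh7, 3 were called higher (25.9% of the 17474 genes tested) and 2 lower (27.3%), and 2 were not called. Without shTHBD replicate 3, the library that stood apart, PLAU (log2 −1.88), SERPINE2 (−1.66), PLAT (1.11) and TIMP1 (0.32) kept their calls, TIMP2 lost its call (0.98), TIMP3 gained one, and PLAUR was again not called (−0.31).

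**Figure D3:**
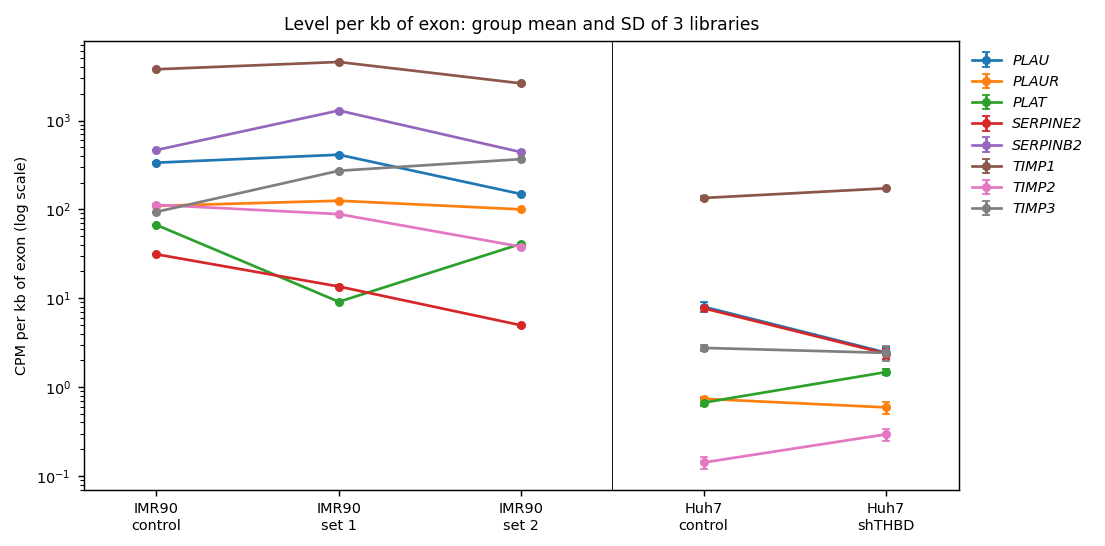
Level of each of the 8 genes in CPM per kilobase of exon (vertical axis, log scale) in each group, as the mean of 3 libraries with SD error bars; lines only join the groups of a line, and SERPINB2 is left out in Huh7, where it was 0. TIMP1 is highest in every group, and PLAT is lowest in IMR90 set 1 while SERPINE2 is lowest in the IMR90 control and set 2.

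Per kilobase of exon, the order of levels in the IMR90 control ran TIMP1 (3773 ± 60), SERPINB2 (465 ± 5.42), PLAU (335 ± 8.88), TIMP2 (112 ± 2.4), PLAUR (109 ± 1.39), TIMP3 (93.7 ± 0.857), PLAT (66.8 ± 0.239) and SERPINE2 (31.2 ± 0.368). Only TIMP2 and PLAUR, neighbours in that order, overlapped in their library values. In the libraries labelled set 1, PLAT dropped to the last place at 9.12 ± 0.214 CPM per kilobase, while TIMP3 rose from the sixth place to the fourth at 272 ± 5.66. In set 2, TIMP3 came in the third place at 368 ± 0.996 CPM per kilobase, above PLAU at 149 ± 2.5, and SERPINE2 came last at 4.95 ± 0.179. No neighbours overlapped in either set. In the Huh7 control the order ran TIMP1 (134 ± 5.35), PLAU (8.03 ± 1.05), SERPINE2 (7.71 ± 0.0534), TIMP3 (2.76 ± 0.194), PLAUR (0.738 ± 0.0379), PLAT (0.668 ± 0.0612), TIMP2 (0.142 ± 0.0228) and SERPINB2 at 0. There PLAU overlapped with SERPINE2, and PLAUR with PLAT. With shTHBD in Huh7, PLAU, TIMP3 and SERPINE2 lay at 2.44 ± 0.354, 2.43 ± 0.459 and 2.38 ± 0.288 CPM per kilobase and overlapped. The tables of the lines were made with different annotations, in which PLAT has 7770 exon bases for IMR90 and 7085 for Huh7, so levels are set side by side without a test.

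The difference between the lines in their response was tested in 1 fit of all 15 libraries. That fit shares its estimate of the spread across the lines, although replicates varied more in Huh7 than in IMR90. For each of the 7 genes tested, the SE of the difference was smaller than that of the Huh7 change it contains. For PLAUR in the libraries labelled set 1 these were 0.13 and 0.26, and for PLAT 0.10 and 0.16. The SEs and p-values of this fit are therefore likely too small, and its intervals too narrow. Measured as the change in the libraries labelled set 1 minus the change in Huh7, 4 of 7 genes were higher (23.9% of the 16682 genes tested), 2 were lower (23.6%) and 1 was not called. PLAT showed the widest gap, falling in IMR90 and rising in Huh7 (log2 difference −3.95 ± 0.10, adjusted p = 5.6e-29). PLAU went the other way, with a rise in the libraries labelled set 1 and a fall in Huh7 (2.08 ± 0.10, adjusted p = 1.8e-20). The TIMP1 changes of 0.33 in the libraries labelled set 1 and 0.33 in Huh7 differed by −0.02 (95% interval −0.11 to 0.07, adjusted p = 0.774). For set 2 minus Huh7, 2 genes were higher (21.2% of all genes) and 4 lower (22.8%), and PLAUR was not called (0.10, 95% interval −0.15 to 0.36, adjusted p = 0.634). TIMP2 fell in set 2 and was higher in Huh7, a difference of −2.70 ± 0.21 (adjusted p = 1.0e-13). The SE of its Huh7 change alone was 0.41. TIMP1 fell in set 2 and rose in Huh7 (−0.97 ± 0.05, adjusted p = 5.0e-20). PLAU and SERPINE2 fell in both, PLAU less in set 2 than in Huh7 (0.46 ± 0.10, adjusted p = 1.8e-04) and SERPINE2 more (−1.04 ± 0.08, adjusted p = 1.2e-13). The differences share the Huh7 libraries and the IMR90 controls, and the line, the way senescence was induced, the hairpin and the level of THBD cannot be told apart. SERPINB2 was left out of this fit because Huh7 had no counts of it.

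**Figure D4:**
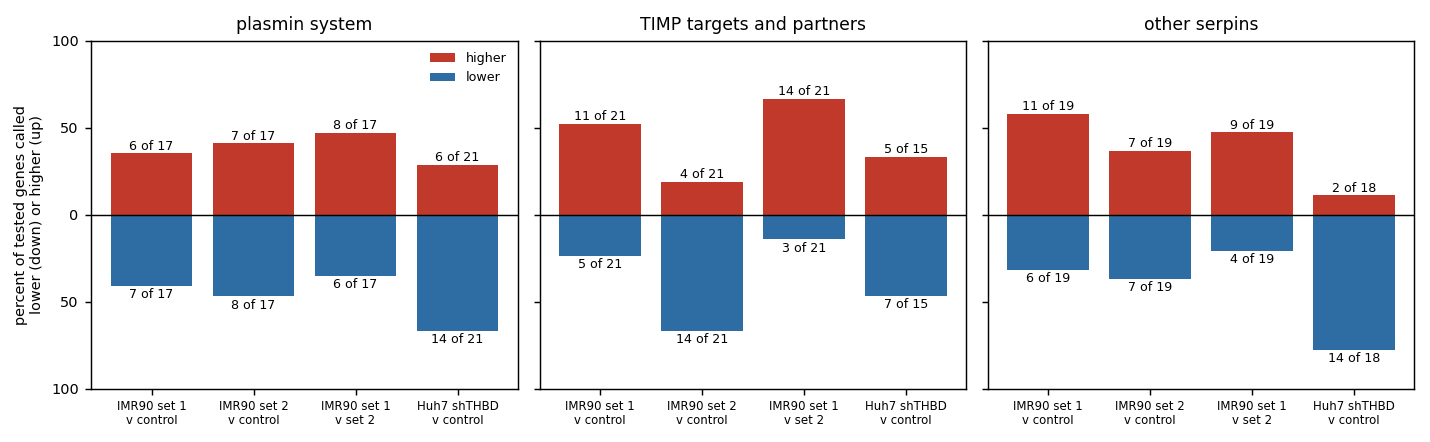
Percent of tested genes called higher (up) or lower (down) in 4 comparisons for 3 gene lists, with the number of genes beside each bar. In the TIMP list 14 of 21 genes were lower in set 2, where 34.1% of all genes tested were, and in the list of other serpins 14 of 18 were lower in Huh7, where 27.3% of all genes were.

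Other genes of the plasmin system, 23 in all, moved in both directions in IMR90. In the libraries labelled set 1, 6 of 17 tested were higher and 7 lower (27.3% and 26.5% of all genes tested), and in set 2, 7 were higher and 8 lower (33.2% and 34.1% of all genes). S100A10, which with annexin A2 binds plasminogen at the cell surface, rose from 157 ± 2.78 CPM in the control to 286 ± 4.77 CPM in the libraries labelled set 1 (log2 0.92 ± 0.03, adjusted p = 3.7e-40) and 323 ± 6 CPM in set 2 (0.96 ± 0.03, adjusted p = 5.5e-42). ANXA2, annexin A2 itself, rose from 3138 ± 11.5 to 5208 ± 27.7 CPM in libraries labelled set 1 (0.79 ± 0.02, adjusted p = 1.1e-52) and to 6064 ± 68.7 CPM in set 2 (0.87 ± 0.02, adjusted p = 3.8e-56). HGF, a growth factor that urokinase can activate, fell from 121 ± 0.327 CPM to 67.3 ± 2.84 CPM in libraries labelled set 1 (−0.80 ± 0.04, adjusted p = 5.4e-27) and to 51.1 ± 1.95 CPM in set 2 (−1.33 ± 0.04, adjusted p = 1.9e-39). ITGB3, an integrin subunit of the vitronectin receptor, fell from 124 ± 7.16 to 27.8 ± 1.77 CPM in set 2 (−2.24 ± 0.05, adjusted p = 3.5e-50) and to 110 ± 2.77 CPM in the libraries labelled set 1 (−0.12 ± 0.04, adjusted p = 0.0125). In Huh7, 14 of 21 tested genes of this list were lower and 6 higher, against 27.3% and 25.9% of all genes. They included VTN, the gene of vitronectin, from 875 ± 33.5 to 231 ± 5.38 CPM (−1.95 ± 0.05, adjusted p = 2.8e-24), and SERPINF2, the plasmin inhibitor alpha-2-antiplasmin, from 113 ± 3.29 to 33.4 ± 2.05 CPM (−1.78 ± 0.07, adjusted p = 4.6e-20). The list's median log2 change was −0.03, −0.06 and −0.38 in the libraries labelled set 1, in set 2 and in Huh7, where the median of all genes lay within 0.007 of 0.

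Metalloproteinases and other partners of the TIMPs, 22 genes, were compared between the sets as well: 14 of 21 tested were higher in the libraries labelled set 1 than in set 2, and 3 were lower (33.9% and 35.6% of all genes). Against control, 11 of these 21 were higher and 5 lower with the label set 1 (27.3% and 26.5% of all genes; median log2 0.08), and in set 2, 4 were higher and 14 lower (33.2% and 34.1% of all genes; median −0.53). MMP9, a gelatinase that TIMP1 binds, stood at 10.9 ± 0.727 CPM in control libraries, 152 ± 3.51 CPM in those labelled set 1 (log2 3.86 ± 0.06, adjusted p = 1.0e-58) and 2.14 ± 0.505 CPM in set 2 (−2.42 ± 0.13, adjusted p = 1.4e-27). MMP3, a stromelysin, fell in set 2 from 1400 ± 25 to 257 ± 12.4 CPM (−2.53 ± 0.02, adjusted p = 1.4e-74) and rose to 1984 ± 16.4 CPM in the libraries labelled set 1 (0.56 ± 0.02, adjusted p = 1.0e-35). MMP10, another stromelysin, fell in set 2 from 88.3 ± 5.21 to 6.90 ± 0.134 CPM (−3.76 ± 0.07, adjusted p = 6.3e-56) and stood at 89.7 ± 1.26 CPM in libraries labelled set 1 (0.08 ± 0.05, adjusted p = 0.128). ADAMTS1, an aggrecan-cleaving protease, rose from 70.5 ± 1.66 to 143 ± 0.423 CPM in libraries labelled set 1 (1.08 ± 0.04, adjusted p = 9.2e-38) and to 166 ± 2.98 CPM in set 2 (1.15 ± 0.04, adjusted p = 2.3e-40). In Huh7, 5 of 15 were higher and 7 lower, against 25.9% and 27.3% of all genes. EFEMP1, which codes for a matrix protein that binds TIMP3, fell there from 347 ± 11.7 to 126 ± 6.39 CPM (−1.49 ± 0.06, adjusted p = 2.2e-20), and RECK, a membrane-anchored metalloproteinase inhibitor, from 52.3 ± 2.23 to 18.7 ± 1.18 CPM (−1.51 ± 0.09, adjusted p = 1.3e-15).

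Of the 36 serpin genes outside the 8, 4 of which are also in the plasmin list, 11 of 19 tested were higher and 6 called lower for the libraries labelled set 1, 7 were higher and 7 lower in set 2, and 2 of 18 were higher and 14 lower in Huh7. Over all genes tested, the shares called higher and lower were 27.3% and 26.5% for the libraries labelled set 1, 33.2% and 34.1% for set 2, and 25.9% and 27.3% for Huh7. The median log2 change was 0.25, 0.02 and −0.81. SERPINA1, alpha-1-antitrypsin, rose in the libraries labelled set 1 from 16.3 ± 1.11 to 134 ± 5.76 CPM (log2 3.10 ± 0.06, adjusted p = 2.7e-54) and fell in set 2 to 8.80 ± 0.57 CPM (−0.97 ± 0.09, adjusted p = 1.9e-16). In Huh7 it fell from 697 ± 16.3 to 247 ± 9.41 CPM (−1.53 ± 0.05, adjusted p = 1.4e-21). In IMR90, 8 of the 15 hepatocyte markers were at 0 in all libraries labelled set 1, and SERPINA1 made up nearly all of their sum of 131 to 141 CPM. SERPINB4, a clade B neighbour of SERPINB2 on chromosome 18, fell in set 2 from 168 ± 4.94 to 12.9 ± 2.42 CPM (−3.78 ± 0.06, adjusted p = 2.9e-61) and rose slightly in the libraries labelled set 1, to 177 ± 6.62 CPM (0.13 ± 0.04, adjusted p = 0.00371). SERPINB7 rose in both sets, from 110 ± 4.11 CPM to 205 ± 3.12 CPM (0.95 ± 0.03, adjusted p = 5.3e-38) and to 260 ± 3.07 CPM (1.16 ± 0.03, adjusted p = 3.7e-44). SERPIND1, heparin cofactor II, fell in Huh7 from 185 ± 6.1 to 41.9 ± 3.17 CPM (−2.17 ± 0.07, adjusted p = 1.9e-22). Summed hepatocyte markers, SERPINA1 among them, went from 9902 to 10200 CPM in the Huh7 controls to 7460 to 7630 CPM with shTHBD, and their part in the fall of the liver-made serpins was not tested. Without Huh7 shTHBD replicate 3, chosen after seeing the data, 14 of 21 plasmin genes, 7 of 15 TIMP partners and 13 of 18 other serpins were lower in Huh7 (26.9% of all genes), and 6, 5 and 2 were higher (24.6%).

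Likeness of pattern was measured as the root mean square difference of log2 CPM, centred on the control mean, over the 9 IMR90 libraries, among 9340 genes. PLAT had 1 gene within 0.2 of it, ALDH1L2, a mitochondrial folate enzyme, at a difference of 0.0773; it was at 57 CPM in control libraries, 8.16 CPM in those labelled set 1 and 36.6 CPM in set 2. The next gene for PLAT was PHGDH, the first enzyme of serine synthesis, at 0.44. SERPINE2 also had 1 gene within 0.2, FER1L6 at 0.128, followed by F2RL1, the protease-activated receptor 2, at 0.259, which was at 264, 149 and 47.8 CPM in control, set 1 and set 2. The nearest genes for TIMP3 were VGF (0.0849) and INPP4B (0.104), and for SERPINB2 they were CDK6 (0.139) and UPP1 (0.146). PLAU was nearest to SELENOT (0.0465) and the glucose transporter SLC2A1 (0.047), and TIMP2 to COL6A1 (0.0547), a collagen VI chain, and SLC22A4 (0.0564). Patterns close to PLAUR and TIMP1 were common, with 1577 and 657 genes within 0.2; the nearest were POLR3D (0.0299) and PUF60 (0.0301), and BID (0.0325) and SLC30A7 (0.041). With 3 groups of similar libraries, this likeness rests mostly on 2 differences between group means.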

How the data were processed

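The authors deposited 1 table of gene counts for each line. The submitters' processing notes name fastp, STAR, featureCounts and GRCh38. Per the file headers, the IMR90 counts came from featureCounts 2.0.1 with GENCODE 38 and no strand option; for Huh7 the sources used here do not give the version, annotation or strand option. Groups follow titles and labels.

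The members, lists and tests were chosen with earlier results of these data known. Each line was fitted with edgeR 4.0.16 in R 4.3.3 (filterByExpr, TMM, quasi-likelihood, Benjamini-Hochberg), IMR90 with its 3 groups in 1 fit, and the lines jointly on shared symbols. The SE is the absolute log2 change over the square root of F, and 95% intervals are 1.96 SE. The fits were tested on simulated data, drawn with 1 common spread per fit. Floors of 3 counts cover counting error only. Alternatives were DESeq2 1.42.0 scaling and test, upper-quartile scaling, limma 3.58.1 voom, other filters, a replicate block, 2 groups alone, leaving out each library and, chosen after seeing the data, library size scaling alone. Common biological variation (coefficient) was 3.13% for IMR90, 8.20% for Huh7 and 5.48% jointly. Replicates differed by more than counting noise. From the 3 lists, up to 5 called genes per comparison with the largest change and at least 10 CPM could be named, and for each member the 2 genes most alike in pattern; values of 1 gene in the lists are not reported here.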

Additional observations from a re-analysis of the deposited data

Results flagged for a closer look

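Effects that differed between the lines by the test of the difference itself (edgeR, joint fit) were found for 6 of the 7 genes tested in each set. That fit shares its spread across the lines, so its SEs and p-values are likely too small. Of all 16682 genes of that fit, 23.9% were higher and 23.6% lower for the libraries labelled set 1, and 21.2% and 22.8% for set 2, so the members' count stands beside a high rate over all genes. As the log2 change in the libraries labelled set 1 minus that in Huh7, the values were −3.95 for PLAT, 2.08 for PLAU, 0.57 for PLAUR, 0.55 for SERPINE2, −1.33 for TIMP2 and 1.79 for TIMP3. For set 2 minus Huh7 they were −1.93 for PLAT, 0.46 for PLAU, −1.04 for SERPINE2, −0.97 for TIMP1, −2.70 for TIMP2 and 2.08 for TIMP3. PLAT and TIMP2 stand lower, and PLAU and TIMP3 higher, in both. For TIMP2 the Huh7 side rests on 13 to 48 counts per library. The test for a single deviating value was not applied, since it needs groups of at least 4 libraries.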

How the results depend on the processing

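All 99 alternative counts of called genes stayed within 1.5 times the reported ones, and 728 of 738 alternative values of the 8 genes kept direction and call. The exceptions were in Huh7 and between lines. TIMP2 in Huh7 lost its call with no filter on low counts (log2 1.01), with the replicate block (1.02, adjusted p = 0.0564) and without each of 5 libraries; over all libraries left out it ranged from 0.88 to 1.15. TIMP3 in Huh7 gained a call without shTHBD replicate 3. The TIMP1 difference between the libraries labelled set 1 and Huh7 (−0.02, not called) turned to 0.002 without set 1 replicate 1 and to 0.011 without Huh7 control replicate 2, in a leave-one-out range of −0.046 to 0.011; the cause was not tested. Replicates of the same number did not deviate together (correlations −0.0524 to 0.0225), so the block is only a check: it called 8237, 10317, 10675, 8784, 7762 and 7132 genes in set 1, set 2, set 1 against set 2, Huh7, set 1 minus Huh7 and set 2 minus Huh7, against 8297, 10372, 10709, 9280, 7925 and 7338 without it, and changed no other call of the 8 genes. Library size scaling alone, chosen after seeing the data, moved the median of all genes by −0.14 between the sets and by less than 0.1 elsewhere; no direction of a called gene among the 8 changed with any scaling. Depth limits TIMP2, PLAUR and PLAT in Huh7, where counts were 13 to 275, and SERPINB2 there, with none. PLAU with shTHBD in Huh7 (148 to 185 counts) and TIMP3 in Huh7 (228 to 298 counts) were in or near the range of 13 to 275.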
